A study of Homo sapiens with 24 samples.

Results

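The 10 features described here are gene-level rows of 24 poly(A) RNA count tables. They comprise 8 coding genes chosen as neural progenitor markers and 2 features that lie on the strand opposite to some of them. They are NES, HES5, DACH1, CDH2, ZBTB16, MSI1, FABP7 and HMGA2, with ENSG00000227279 opposite CDH2 and HMGA2-AS1 opposite HMGA2. All 10 were found by name among the 61248 features of each table. The libraries came from H7, a human embryonic stem cell line, as 2 lines knocked out for BRAT1 (a partner of the Integrator RNA cleavage complex) and 2 control lines. Each line was sampled after 14 days of ventral neural differentiation, as neural progenitors, and at day 0, as undifferentiated stem cells. With 3 biological replicates, lettered A to C, each genotype and day has 6 libraries. The 4 groups are day 14 BRAT1 knockout, day 14 control, day 0 BRAT1 knockout and day 0 control. How the lines were derived, and whether each is a single clone, is not given in the sources used here.

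Neural progenitors of the early neural tube form a polarised epithelium, which cultured stem cells copy as neural rosettes. Its cells hold intermediate filaments of nestin (NES) and vimentin, are joined by N-cadherin (CDH2), and are kept from becoming neurons by Notch signalling. In that pathway a ligand such as DLL1 or JAG1 on one cell activates a NOTCH receptor on its neighbour. The freed receptor domain joins the DNA-binding protein RBPJ and switches on repressor genes such as HES5. DACH1 and ZBTB16 (also called PLZF) encode transcription factors that mark rosette-stage cells. MSI1 encodes the RNA-binding protein Musashi, FABP7 the brain lipid-binding protein of radial glia, and HMGA2 a chromatin protein of fetal stem cells that the let-7 microRNAs repress.

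At day 14 the libraries held 2688218 to 3726227 counts in BRAT1 knockout and 2228736 to 3682807 in control. At day 0 they held 1425141 to 2143871 counts in BRAT1 knockout and 1407832 to 2059467 in control. Levels are given in CPM, the count of a feature scaled to a library total of 1000000, and at these depths 1 CPM is only a few reads. BRAT1 itself, at day 14, had 7.66 to 86.8 CPM in knockout libraries and 186 to 317 CPM in control libraries. Within the knockout, line 2 kept 71.2 to 86.8 CPM of BRAT1, and line 1 had 7.66 to 16.9 CPM. At day 0 BRAT1 reached at most 6.31 CPM in knockout and 2.91 CPM in control libraries, so its counts do not check the genotype labels there. PAX6, a neural progenitor transcription factor, had a median of 104 CPM in knockout and 84.2 CPM in control libraries at day 14, and of 7.07 CPM in knockout and 7.15 CPM in control libraries at day 0. The medians of VIM were 188 and 168 CPM at day 14, and 1.78 and 1.58 CPM at day 0, in the same order. SOX1 had 12.6 and 3.75 CPM at day 14, and 0 in both genotypes at day 0. SOX2 had 10.5 and 9.73 CPM at day 14, and 1.41 and 3.27 CPM at day 0. Its ranges overlapped between the days in both genotypes.

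The counts have a strand pattern that bears on every member. Of 1972 pairs of an antisense feature and the coding gene it overlaps, 67.4% held more counts under the antisense name. VIM, for example, averaged 228 CPM in day 14 knockout and 163 CPM in day 14 control libraries under its own name. VIM-AS1, on the other strand, averaged 4731 CPM in knockout and 5654 CPM in control. Counts under a coding gene's own name can therefore be its messenger RNA read on the minority strand, or RNA of the opposite strand, and these cannot be told apart here. Over 505 strongly one-sided pairs, the counts under the coding gene were summed as a percent of the counts under the feature opposite, and this value is called the minority-strand percent of a library. It was 2.78 ± 0.69% in day 14 knockout and 1.89 ± 0.27% in day 14 control libraries (SD, n = 6 each; two-sided exact permutation p = 0.0152). At day 0 it was 0.721% in knockout and 0.708% in control libraries (exact permutation p = 0.831). In 4 of the 6 day 14 knockout libraries, line 1 replicate C and all 3 of line 2, it was above every control library.

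Knockout was compared with control at day 14 to ask how loss of BRAT1 goes with the progenitor programme. NES, HES5, DACH1, CDH2 and ENSG00000227279 were higher in the knockout, by 1.66 to 3.43-fold. The differences of ZBTB16, MSI1, HMGA2 and HMGA2-AS1 did not pass the threshold, and FABP7 had too few counts for the fit. Thus 5 of the 9 members tested were higher and 0 were lower (edgeR quasi-likelihood test, Benjamini-Hochberg adjusted p under 0.05), where 11.0% of all 11408 tested features were called higher and 10.7% lower. The members' median log2 fold change was 0.89, against 0.07 over all tested features. Among the 3455 tested coding genes with no exon opposite, 13.8% were called higher and 3.76% lower, with a median of 0.33. With all 24 libraries in 1 fit, in which day 0 and day 14 share an estimate of the spread, the log2 fold changes of NES (1.30), HES5 (1.79) and DACH1 (0.89) were close to those given below. Their adjusted p-values were 0.0751, 0.0838 and 0.180, and 0 members passed. In bulk RNA, fewer cells of a type and less RNA per cell cannot be told apart.

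**Figure D1:**
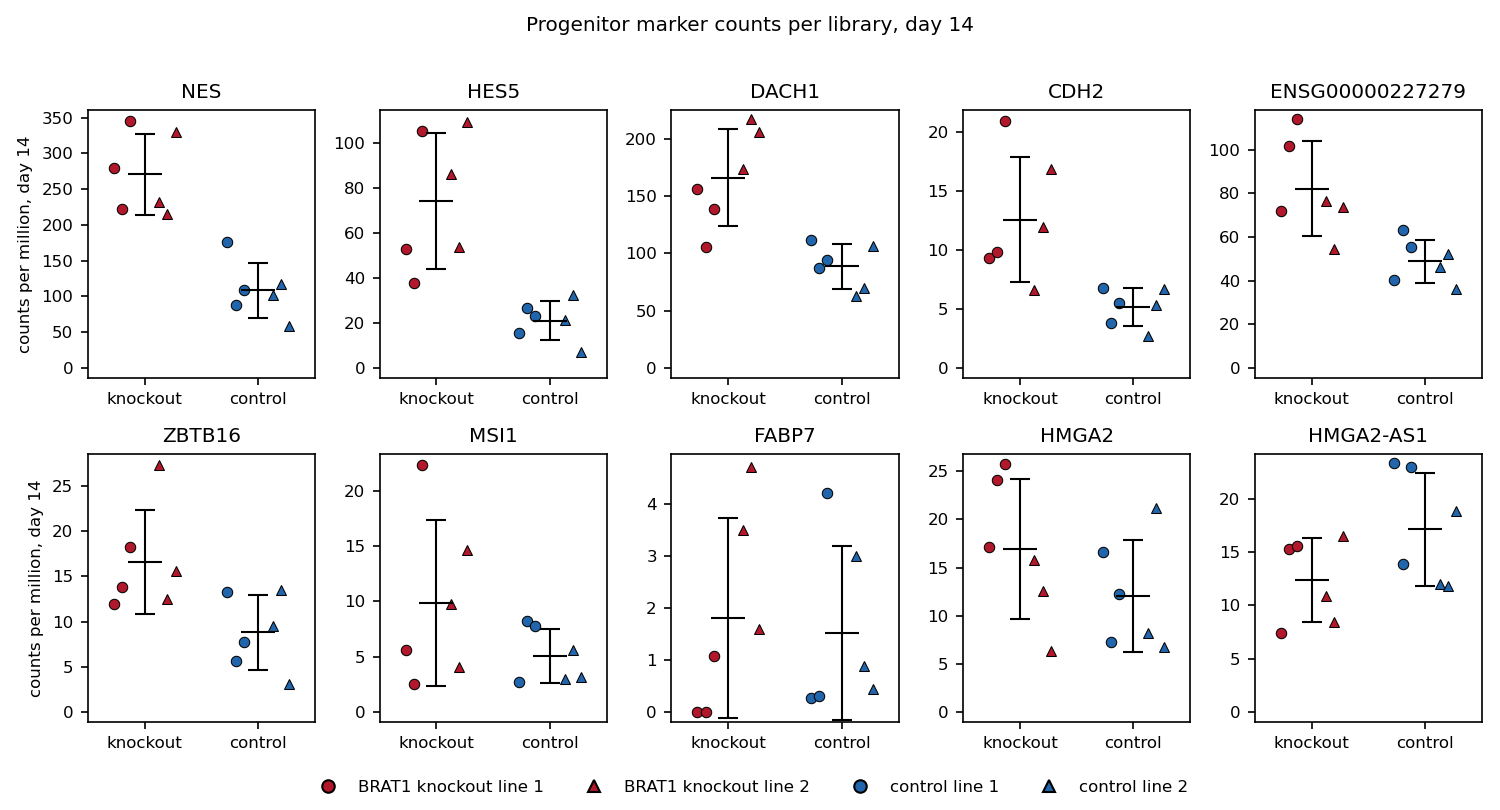
CPM of the 10 members at day 14, with BRAT1 knockout left of control in each panel. Each point is a library, circles are line 1 and triangles line 2, and the bars are the mean and SD of 6 libraries (drawn below 0 for FABP7 only in part). The knockout and control libraries do not overlap for NES and HES5.

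NES encodes nestin, the filament protein by which neural stem cells are usually stained. GENCODE release 29 places it on the minus strand of GRCh38 chromosome 1, at 156668763 to 156677397, with no annotated exon opposite. At day 14 its replicates A, B and C had 280, 222 and 346 CPM in knockout line 1 and 233, 215 and 330 CPM in knockout line 2. In the control lines they had 176, 88.1 and 109 CPM in line 1 and 101, 117 and 59.2 CPM in line 2. Every knockout library was above every control library, as was the case for 4.75% of all tested features, and HES5 was the only other member to show this. The mean was 271 ± 56.9 CPM in knockout and 109 ± 38.8 CPM in control libraries (SD, n = 6 each). On the log2 scale NES was higher by 1.30 (SE 0.19, edgeR adjusted p = 1.69e-05), a 2.46-fold difference.

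HES5 encodes the basic helix-loop-helix repressor that Notch switches on in neural progenitors. It lies on the minus strand of chromosome 1, at 2528745 to 2530245, and the noncoding feature ENSG00000272449 starts within it on the other strand without sharing exon bases. Its replicates A, B and C had 52.8, 37.6 and 105 CPM in knockout line 1 and 86.1, 53.6 and 109 CPM in knockout line 2 at day 14. In control lines they had 15.7, 26.7 and 22.9 CPM in line 1 and 21.3, 32.4 and 7.18 CPM in line 2. The lowest knockout library was above the highest control library. HES5 had the largest log2 fold change of the 9 members, 1.78 (SE 0.27, edgeR adjusted p = 4.36e-05), with means of 74.2 ± 30.3 CPM in knockout and 21.0 ± 8.77 CPM in control libraries (SD, n = 6 each).

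The 250 bases before the start of HES5, NES and DACH1, the 3 members with the smallest adjusted p, are shown because Notch acts on HES5 through RBPJ sites in this stretch. They were taken from RefSeq (GRCh38.p14), which gave a promoter for 6 of the 10 members, and are written 5′ to 3′ on the gene's own strand. Capitals mark exact matches on either strand to the core bound by RBPJ, spelled GTGGGAA, and to the core bound by SOX factors, which are transcription factors of neural progenitors. The SOX core is spelled CATTGT, and no match overlaps another.
HES5, chr1:2530264-2530513, minus strand: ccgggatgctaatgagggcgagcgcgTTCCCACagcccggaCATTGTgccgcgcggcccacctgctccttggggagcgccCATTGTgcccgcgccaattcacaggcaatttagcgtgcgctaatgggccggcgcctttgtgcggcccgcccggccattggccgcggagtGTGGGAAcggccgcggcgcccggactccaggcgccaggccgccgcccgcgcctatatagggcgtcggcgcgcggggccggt
NES, chr1:156677408-156677657, minus strand: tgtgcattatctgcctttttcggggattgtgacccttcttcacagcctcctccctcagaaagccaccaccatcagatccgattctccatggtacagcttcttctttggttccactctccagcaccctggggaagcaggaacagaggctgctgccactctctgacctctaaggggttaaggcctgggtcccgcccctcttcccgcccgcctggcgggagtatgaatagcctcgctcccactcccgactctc
DACH1, chr13:71867205-71867454, minus strand: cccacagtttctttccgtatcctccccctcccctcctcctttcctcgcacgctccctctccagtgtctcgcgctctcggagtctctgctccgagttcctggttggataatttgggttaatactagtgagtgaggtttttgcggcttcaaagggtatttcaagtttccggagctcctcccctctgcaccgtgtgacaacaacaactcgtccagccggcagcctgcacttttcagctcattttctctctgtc
The HES5 stretch holds the RBPJ core at bases -224 to -218 and -81 to -75 from the start and the SOX core at -209 to -204 and -170 to -165. Of 35116 promoters of this length, 5.43% hold at least 1 RBPJ core and 0.174% at least 2. The SOX core is in 9.29% of them, with at least 2 in 0.874%. It was chosen after reading the HES5 stretch, so these SOX shares do not measure how unusual the HES5 matches are. No match to either was in the stretches of NES or DACH1, nor in those found for CDH2, FABP7 and HMGA2-AS1. A match is a run of letters and not a measured binding site.

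DACH1 encodes a nuclear factor related to the fly gene dachshund and is used as a marker of rosette cells. It spans 71437966 to 71867192 on the minus strand of chromosome 13, with no exon opposite. At day 14 it had a lowest, median and highest value of 105, 165 and 217 CPM in knockout libraries, against 62.7, 90.9 and 111 CPM in control libraries. The groups overlapped only between knockout line 1 replicate B, at 105 CPM, and the 2 highest control libraries, at 111 and 106 CPM. DACH1 was higher by 0.89 on the log2 scale (SE 0.18, edgeR adjusted p = 0.000689). With counts summed per line, so that 2 knockout lines were set against 2 control lines, it was 0.76 with an adjusted p of 0.0553.

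CDH2 encodes N-cadherin, the calcium-dependent adhesion protein of the neural tube, and covers 27950966 to 28177446 on the minus strand of chromosome 18. ENSG00000227279, annotated as antisense, lies inside it on the plus strand at 27954519 to 27963687, and 136 of its 440 exonic bases face CDH2 exons. At day 14 CDH2 had a lowest, median and highest value of 6.65, 10.9 and 20.9 CPM in knockout libraries, against 2.73, 5.39 and 6.79 CPM in control libraries. ENSG00000227279 had 54.6, 74.9 and 114 CPM in knockout libraries, against 35.9, 49.1 and 62.9 CPM in control libraries. Each overlapped between the groups at its lower knockout values. CDH2 was higher by 1.27 on the log2 scale (SE 0.38, edgeR adjusted p = 0.0161) and ENSG00000227279 by 0.73 (SE 0.18, edgeR adjusted p = 0.00422). As CDH2 RNA read on the majority strand would be counted under ENSG00000227279, the 2 rows may hold RNA of the same gene.

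Per library, the CDH2 count was 15.8 ± 6.15% of the ENSG00000227279 count in day 14 knockout and 11.3 ± 5.42% in day 14 control libraries (SD, n = 6 each; two-sided exact permutation p = 0.221). The difference of this ratio was thus within the spread between libraries. The call of CDH2 rests on 240 counts over the 6 knockout libraries and 97 over the 6 control libraries, and was lost in 12 of 30 alternative analyses. Among these was the analysis without both knockout replicates C, with a log2 fold change of 0.92 (adjusted p = 0.153). The call of ENSG00000227279 was lost when the 3 libraries of each line were summed (0.59, adjusted p = 0.137). It was also lost without knockout line 1 (0.40, adjusted p = 0.168) and without control line 2 (0.54, adjusted p = 0.153), and in the joint fit of both days.

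**Figure D2:**
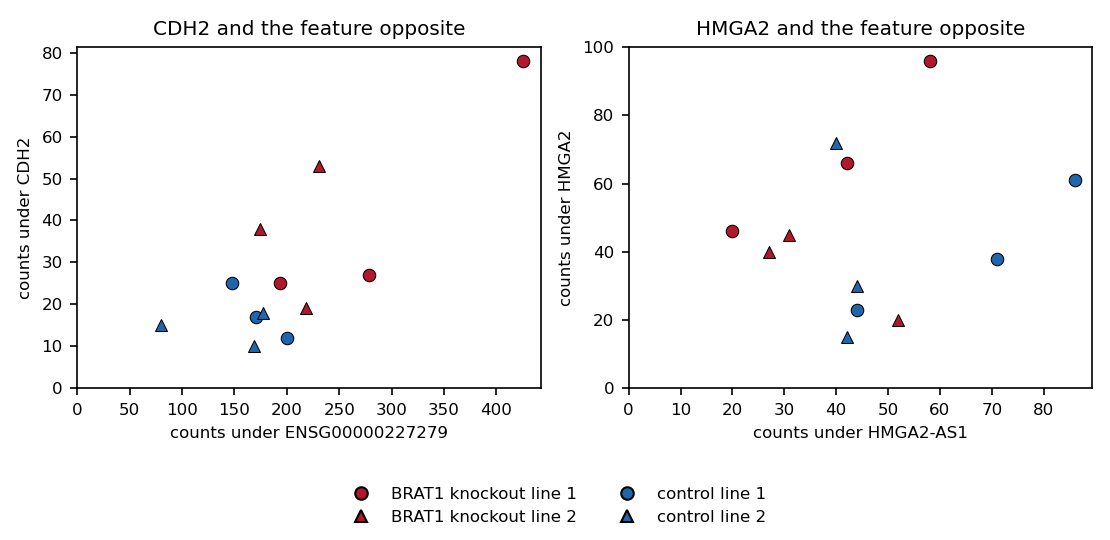
Raw counts under a coding gene (vertical axis) against counts under the feature on the other strand (horizontal axis) in the 12 day 14 libraries. CDH2 reached 78 and 53 counts in the C replicates of knockout lines 1 and 2, and HMGA2-AS1 stood at 20 to 58 counts in knockout and 40 to 86 in control libraries.

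HMGA2 binds the minor groove of AT-rich DNA and is known for keeping fetal neural stem cells dividing. It lies on the plus strand of chromosome 12, at 65824131 to 65966295, and HMGA2-AS1 lies on the minus strand at 65851340 to 65882167, with 384 of its 6033 exonic bases facing HMGA2 exons. At day 14 HMGA2 had a lowest, median and highest value of 6.36, 16.4 and 25.8 CPM in knockout libraries, against 6.73, 10.2 and 21.2 CPM in control libraries. HMGA2-AS1 had 7.44, 13.1 and 16.5 CPM in knockout libraries, against 11.8, 16.3 and 23.4 CPM in control libraries. The groups overlapped for both. HMGA2 had a log2 fold change of 0.48 (SE 0.34, edgeR adjusted p = 0.349) and HMGA2-AS1 one of -0.50 (SE 0.30, edgeR adjusted p = 0.243).

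Within the HMGA2 pair the point estimates had opposite signs, unlike the CDH2 pair. The HMGA2 count was 147 ± 61.8% of the HMGA2-AS1 count in knockout and 76.8 ± 52.1% in control libraries (SD, n = 6 each; two-sided exact permutation p = 0.0649). Here 5 of 6 knockout libraries held more counts under HMGA2 than under HMGA2-AS1, against 1 of 6 control libraries. The exceptions were knockout line 2 replicate C, at 38.5%, and control line 2 replicate B, at 180.0%. When 1 library was left out at a time, the exact permutation p was 0.0216 without either of these and 0.104 to 0.130 without any of the other 10.

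ZBTB16 encodes the zinc finger repressor PLZF and lies on the plus strand of chromosome 11 at 114059593 to 114250676. It had a lowest, median and highest value of 11.9, 14.7 and 27.3 CPM in day 14 knockout libraries, against 3.14, 8.65 and 13.5 CPM in day 14 control libraries. The groups overlapped between the 2 lowest knockout and the 2 highest control libraries. The log2 fold change of 0.87 (SE 0.33) missed the threshold in the main test (edgeR adjusted p = 0.0638) and passed it with DESeq2 (adjusted p = 0.0441). With the libraries thinned to equal depth, 1 random draw gave 0.68 (adjusted p = 0.211) and another 1.20 (adjusted p = 0.0161).

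MSI1, on the minus strand of chromosome 12 at 120341330 to 120369180, had 2.55, 7.69 and 22.3 CPM as its lowest, median and highest value in knockout libraries. In control libraries it had 2.72, 4.37 and 8.18 CPM. Its 2 highest values, 22.3 and 14.6 CPM, were the C replicates of knockout lines 1 and 2, and the groups overlapped otherwise except for line 2 replicate A at 9.80 CPM. MSI1 had a log2 fold change of 0.90 (SE 0.47, edgeR adjusted p = 0.178), and 0.13 without both knockout replicates C.

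FABP7, on the plus strand of chromosome 6 at 122779475 to 122784074, had 34 counts over the 6 knockout libraries and 30 over the 6 control libraries at day 14. It averaged 1.81 ± 1.92 CPM in knockout and 1.52 ± 1.67 CPM in control libraries (SD, n = 6 each; two-sided exact permutation p = 0.745). The difference was within the spread between libraries. Within the knockout, line 2 had 30 counts over its 3 libraries (1.59 to 4.71 CPM) and line 1 had 4 (0 to 1.07 CPM). The lines thus did not overlap, which was also so for DACH1 and HMGA2, although neither of those passed the test between knockout lines. The share of all features without overlap between these lines was not counted. The FABP7 difference between the lines was not tested.

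Libraries with a high minority-strand percent were also those with high counts of some members. Knockout line 1 replicate C and knockout line 2 replicate C shared the highest percent, 3.58% each. These 2 libraries also had the highest NES, HES5 and MSI1 values of the 12 and, with knockout line 2 replicate B, the 3 highest of CDH2. The lowest percent, 1.44%, was that of control line 2 replicate C, which had the lowest NES, HES5 and ZBTB16 values. With the percent as a covariate, NES kept its call (log2 fold change 1.00, SE 0.21, edgeR adjusted p = 0.00224), and so did HES5 (1.05, SE 0.28, adjusted p = 0.0116). DACH1 (0.85, adjusted p = 0.0267) and ENSG00000227279 (0.75, adjusted p = 0.0256) also passed in that analysis. CDH2 no longer passed (0.83, adjusted p = 0.289), and the MSI1 estimate changed sign (-0.42, adjusted p = 0.727).

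Without the 4 knockout libraries whose percent was above every control library, 2 knockout libraries of line 1 remained. NES was then higher by 1.27 on the log2 scale (SE 0.30, edgeR adjusted p = 0.0215), HES5 by 1.17 (SE 0.34, adjusted p = 0.0218) and ENSG00000227279 by 0.88 (SE 0.22, adjusted p = 0.00641). DACH1 had 0.62 (adjusted p = 0.0562), CDH2 0.95 (adjusted p = 0.281) and MSI1 -0.24 (adjusted p = 0.877). When the percent was taken over a wider set of 763 pairs, the HES5 estimate was 0.73 (adjusted p = 0.182) and that of NES 0.95 (adjusted p = 0.0361). DACH1 (0.68, adjusted p = 0.163) and CDH2 (0.72, adjusted p = 0.499) did not pass with the wider set either, and ENSG00000227279 did (0.86, adjusted p = 0.0390). These analyses were chosen after seeing the data, except the first covariate.

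**Figure D3:**
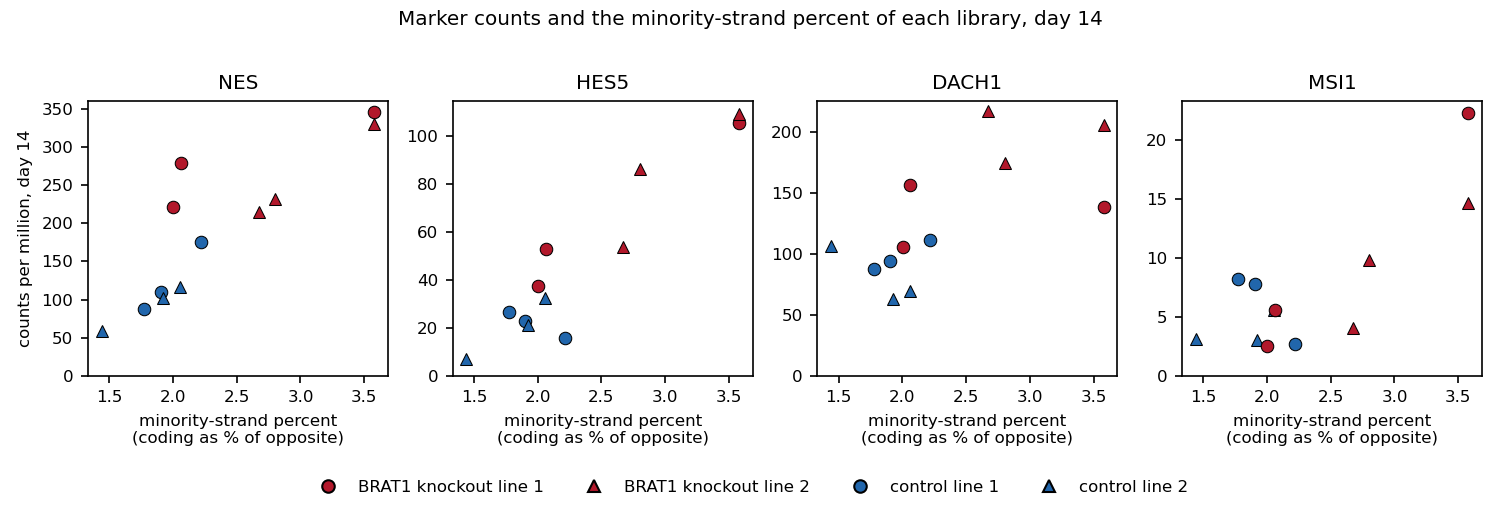
CPM of NES, HES5, DACH1 and MSI1 (vertical axis) against the minority-strand percent of the library (horizontal axis) in the 12 day 14 libraries. The C replicates of both knockout lines lie farthest right, at 3.58%, and have the highest NES, HES5 and MSI1 values, while DACH1 was highest in knockout line 2 replicate B.

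**Figure D4:**
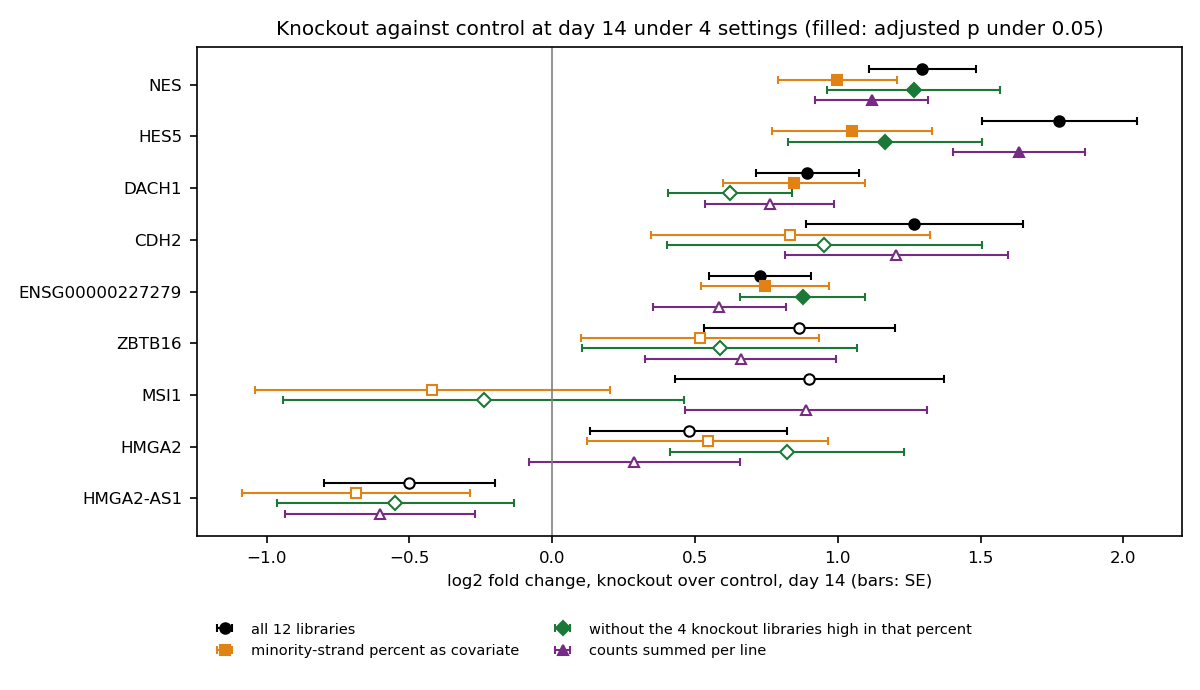
Log2 fold change of 9 members at day 14, knockout over control, with SE, in the main analysis and 3 alternatives. Filled symbols have an adjusted p under 0.05. NES and HES5 are filled in all 4, CDH2 only in the main analysis, and MSI1 lies on both sides of 0.

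The members called at day 14 had the same direction in both lines of each genotype, which a call from these same libraries makes likely. The pairings that follow are therefore a description and not separate support. Each knockout line was set against each control line. In all 4 of these pairings the mean of the knockout line was the higher for NES, HES5, DACH1, CDH2 and ENSG00000227279. The same held for ZBTB16 and MSI1, which were not called. It was higher in 2 of 4 pairings for HMGA2 and FABP7, and in 0 of 4 for HMGA2-AS1. The share of all features higher in 4 of 4 pairings was not counted. For MSI1 the medians went the other way between the lines numbered 1, at 5.58 CPM in knockout and 7.75 CPM in control. Between knockout line 2 and knockout line 1, 0 of the 9 tested members passed, where 0.402% of 12442 features did. DACH1 averaged 199 ± 22.4 CPM in knockout line 2 and 133 ± 26.0 CPM in knockout line 1 (SD, n = 3 each), a log2 fold change of 0.55 (edgeR adjusted p = 0.431). HMGA2 averaged 11.6 CPM in line 2 and 22.3 CPM in line 1, a log2 fold change of -0.96 (edgeR adjusted p = 0.536). Between control line 2 and control line 1, 0 members and 0.244% of 11479 features passed.

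The progenitor structure list holds 17 genes, 4 of them members (NES, CDH2, MSI1 and FABP7). Of the 13 other genes 11 were tested, and 4 were higher in knockout at day 14 and 0 lower, where 11.0% of all tested features were higher. Their median log2 fold change was 0.40, against 0.07 over all tested features. Among coding genes with no exon opposite, the median was 0.33, with 13.8% higher and 3.76% lower. NCAM1, the neural cell adhesion molecule, had 64.0 ± 15.2 CPM in knockout and 30.1 ± 4.66 CPM in control libraries (SD, n = 6 each; log2 fold change 1.06, edgeR adjusted p = 9.50e-05). NCAM1-AS1 and ENSG00000247416, both opposite NCAM1, were higher as well, by 0.96 and 1.56 on the log2 scale. CTNNB1, which encodes the beta-catenin that links cadherins to the cytoskeleton, was higher by 1.10 (adjusted p = 0.000245). ITGB1, an integrin subunit, was higher by 1.42 (adjusted p = 0.00355). VIM (0.44, adjusted p = 0.137) and CTNNA1 (0.05, adjusted p = 0.895) did not pass, nor did VIM-AS1 (-0.27, adjusted p = 0.0763) and ENSG00000234961 (-0.33, adjusted p = 0.0678) opposite VIM.

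Notch ligands and receptors did not pass the test at day 14, while HES5 did. Of 5 ligands, 2 were tested, and DLL1 averaged 20.6 ± 15.3 CPM in knockout and 9.45 ± 3.05 CPM in control libraries (SD, n = 6 each; log2 fold change 1.08, edgeR adjusted p = 0.0693). JAG1 had a log2 fold change of 1.21 (adjusted p = 0.0954), and ENSG00000270792 opposite it one of -0.24 (adjusted p = 0.292). Of 4 receptors, 3 were tested and 0 passed, with NOTCH3 at 0.87 (adjusted p = 0.0732) and NOTCH1 at -0.22 (adjusted p = 0.724). A difference between HES5 and these genes was not tested.

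Genes that process or transduce the Notch signal numbered 18, of which 10 were tested and 2 were higher, where 11.0% of all tested features and 13.8% of coding genes with no exon opposite were higher. RBPJ, the DNA-binding partner of the receptor, averaged 10.3 ± 3.72 CPM in knockout and 4.36 ± 1.96 CPM in control libraries (SD, n = 6 each; log2 fold change 1.21, edgeR adjusted p = 0.0357). NUMB, an inhibitor of the receptor, was higher by 1.19 (adjusted p = 0.0377). ADAM17, a protease that can shed receptors, had 0.49 (adjusted p = 0.0857), with -0.01 for IAH1 opposite it, and the co-activator MAML1 had 0.63 (adjusted p = 0.171).

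Of 7 Notch target genes, 2 were tested and HES5 was higher, while HES4 had 0.72 (adjusted p = 0.313). In the list of 7 rosette genes, 5 were tested, and HES5 and DACH1 were higher, with LMO3 at 1.61 (adjusted p = 0.0506). Of all tested features 11.0% were higher. HES5 and DACH1 are members described above. Apart from members, 1 Notch target and 2 rosette genes were tested, and 0 were called. All 8 genes of the fetal chromatin list were tested and 0 passed. IGF2BP2, which encodes an RNA-binding protein and is known as a target of HMGA2, had 0.24 (adjusted p = 0.403) and HMGA1 had -0.15 (adjusted p = 0.643). Across these 7 lists, 0 genes were called lower, where 10.7% of all tested features were. Among coding genes with no exon opposite, 3.76% were called lower.

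Markers of other cell types also differed between genotypes at day 14, and their part in the members' values was not tested. The summed level of 12 neuron markers was 179 to 377 CPM in knockout and 122 to 189 CPM in control libraries, with 5 of 9 tested markers higher, where 11.0% of all tested features were. For 6 glia markers it was 62.4 to 89.6 CPM in knockout and 31.9 to 44.2 CPM in control libraries, but 87.7% of the list's counts in knockout and 86.0% in control libraries were GFAP, the only glia marker tested and called higher. GFAP has 2230 exonic bases facing CCDC103 on the other strand. At day 0 the glia sum was 19.6 to 97.4 CPM in knockout and 0.572 to 36.9 CPM in control stem cells. AQP4 and S100B were at 0 in knockout, and S100B in control, at day 14. For 6 neural crest markers it was 35.0 to 73.1 CPM in knockout and 114 to 155 CPM in control libraries, with 2 of 5 tested lower, where 10.7% of all tested features were. The 5 markers of non-neural ectoderm summed to 16.8 to 49.9 CPM in knockout, with KRT5 and KRT14 at 0, and to 1.36 to 6.78 CPM in control, with KRT5 at 0. Of these GATA2 alone was tested, and it was higher. The ranges overlapped for 8 pluripotency, 8 mesenchyme, 7 mesendoderm and 4 endothelium markers, and 0 of their tested genes passed.

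In day 0 stem cells no member passed the test between genotypes. Of 10 members, NES, DACH1 and HMGA2 had the counts to be tested there, and 0 of all 4832 tested features were called (edgeR, 0.0%), with 99 at an unadjusted p under 0.05. DESeq2 also called 0 features, with 163 at an unadjusted p under 0.05. NES averaged 23.9 ± 16.5 CPM in knockout and 39.1 ± 25.4 CPM in control stem cells (SD, n = 6 each), a log2 fold change of -0.74 (SE 0.60). DACH1 averaged 9.01 ± 4.18 CPM in knockout and 9.82 ± 3.31 CPM in control, and HMGA2 13.8 ± 9.83 CPM in knockout and 9.91 ± 6.71 CPM in control. HES5 had 0 counts in all 12 day 0 libraries.

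HMGA2-AS1 at day 0 was uneven among knockout libraries. Its replicates A, B and C had 14.7, 0 and 1.40 CPM in knockout line 1 and 15.2, 5.60 and 0 CPM in knockout line 2. In control libraries it had 3.08 CPM at most. The means, 6.15 ± 7.13 CPM in knockout and 0.999 ± 1.20 CPM in control libraries, did not differ beyond the spread between libraries (SD, n = 6 each; two-sided exact permutation p = 0.139). That permutation ignored the replicate letter, though all 12 day 0 libraries correlated best with libraries of their own letter.

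The comparison of day 14 with day 0 asks which members came up with differentiation. In knockout lines NES, HES5, DACH1, CDH2, ENSG00000227279, ZBTB16 and MSI1 rose, 7 of 9 tested, where 29.8% of 10971 features rose and 16.5% fell. In control lines NES, HES5, DACH1, ENSG00000227279, ZBTB16 and HMGA2-AS1 rose, 6 of 9 tested, where 28.4% of features rose and 14.4% fell. Of the tested members 0 fell in either. However, HES5, CDH2, ENSG00000227279, ZBTB16, MSI1 and HMGA2-AS1 were under the count filter at day 0. They entered this fit through their day 14 counts, so a fall could hardly be called for them. The tallies of members that rose are therefore a description only. The knockout and control comparisons share no library, but both come from 1 fit with a shared estimate of the spread, so they are not independent. The minority-strand percent was also higher at day 14. In knockout libraries it averaged 2.78% at day 14 and 0.721% at day 0. In control libraries it averaged 1.89% at day 14 and 0.708% at day 0. Its part in the members' changes with day was not tested. The median log2 change of all tested features was 0.65 in knockout and 0.60 in control lines. With RLE scaling these medians became 1.04 in knockout and 0.83 in control lines, and the calls in knockout lines split into 4123 higher and 1405 lower, in place of 3265 higher and 1812 lower.

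**Figure D5:**
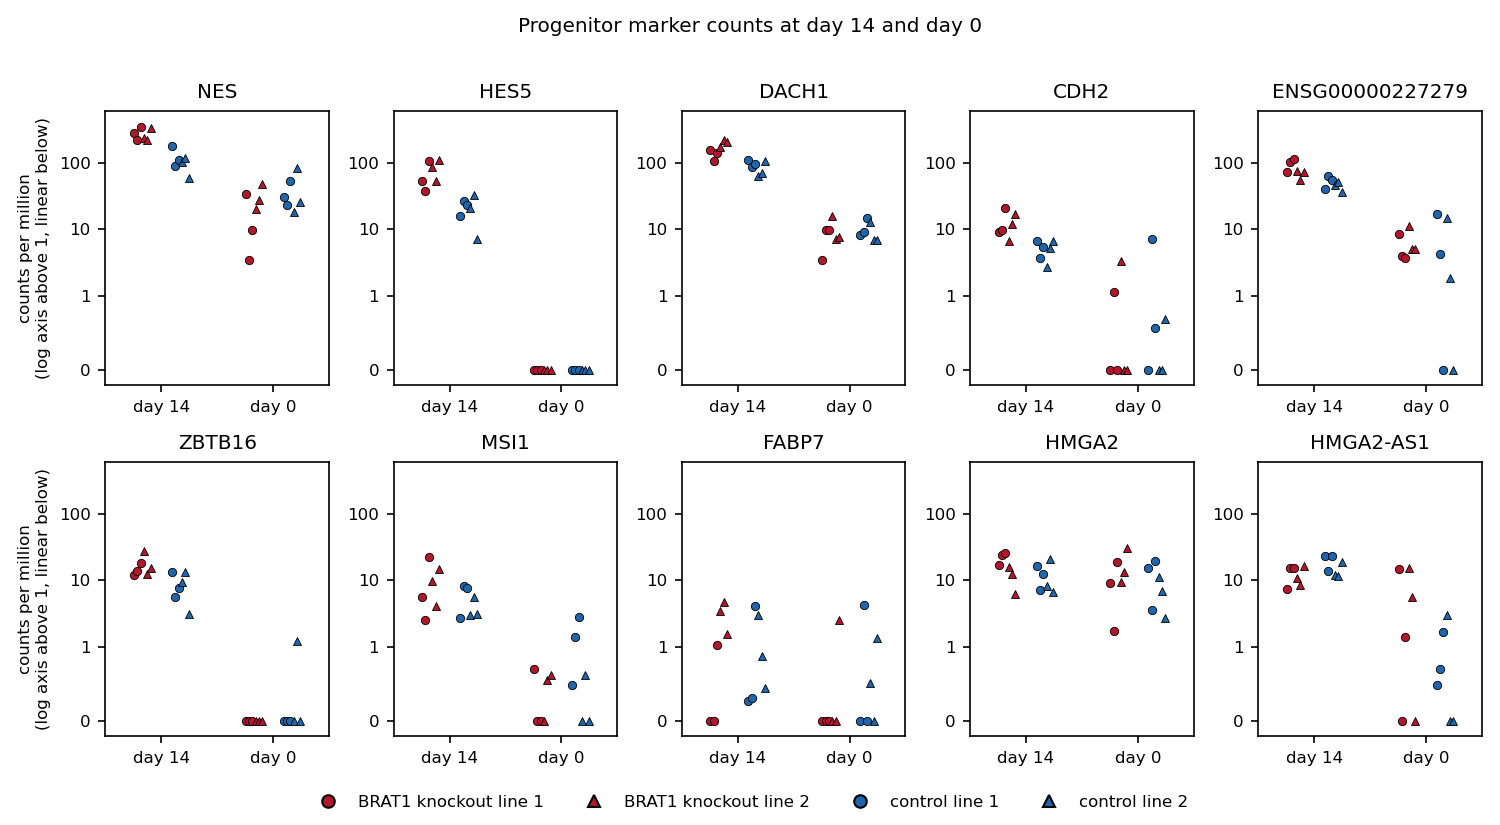
CPM of the 10 members at day 14 and day 0, with knockout left of control in each. Each point is a library, and the vertical axis is linear below 1 and logarithmic above. HES5 has 0 counts in every day 0 library, and HMGA2 covers much the same range at both days.

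HES5, ZBTB16, MSI1, CDH2 and FABP7 had few counts in stem cells, at most 12 over the 6 libraries of a genotype. HES5 had 1399 counts at day 14 and 0 at day 0 in knockout lines, which is at least 274-fold higher at day 14, taking 3 counts over the day 0 group as the floor. In control lines it had 418 counts at day 14 and 0 at day 0, at least 74.0-fold higher. ZBTB16 had 305 counts at day 14 and 0 at day 0 in knockout lines, at least 59.8-fold higher. In control lines it had 179 counts at day 14 and 2 at day 0, a ratio of 47.5 with a 95% exact counting interval of 13.0 to 395.

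DACH1 was higher at day 14 by 3.64 on the log2 scale in knockout lines (SE 0.36, edgeR adjusted p = 9.92e-10) and by 2.63 in control lines (SE 0.35, adjusted p = 4.07e-07). For ENSG00000227279 the log2 change was 3.15 in knockout (SE 0.66, adjusted p = 0.000225) and 2.27 in control lines (SE 0.64, adjusted p = 0.00473). CDH2 changed by 3.36 in knockout (SE 1.02, adjusted p = 0.00765) and had 1.36 in control lines (SE 0.97, adjusted p = 0.269). Its control value rests on 1 day 0 library with 10 counts, control line 1 replicate B, and was 3.78 (adjusted p = 0.00647) without it. MSI1 had 192 counts at day 14 and 3 at day 0 in knockout lines, a ratio of 37.6 with a 95% exact counting interval of 12.7 to 184. In control lines its log2 change was 1.93 (SE 0.83, adjusted p = 0.0593).

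NES was 2.98 higher at day 14 on the log2 scale in knockout lines (SE 0.42, edgeR adjusted p = 9.36e-07) and 0.97 higher in control lines (SE 0.39, adjusted p = 0.0465). The control call is fragile, as 17 of 29 alternatives gave an adjusted p above 0.05. The day 14 and day 0 ranges of NES did not overlap in knockout lines (215 to 346 CPM at day 14, 3.44 to 48.6 CPM at day 0). They overlapped in control lines (59.2 to 176 CPM at day 14, 18.0 to 84.6 CPM at day 0). In knockout lines the days also did not overlap for HES5, DACH1, CDH2, ENSG00000227279, ZBTB16 and MSI1. In control lines they did not overlap for HES5, DACH1, ENSG00000227279, ZBTB16 and HMGA2-AS1. The share of all features without overlap between days was not counted.

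HMGA2 did not pass the test of differentiation in either genotype. Its log2 change was -0.24 in knockout (SE 0.61, edgeR adjusted p = 0.770) and -0.29 in control lines (SE 0.61, adjusted p = 0.727). In knockout lines the direction depends on the scaling: with RLE scaling the log2 change was 0.16 in knockout and -0.05 in control lines. In CPM, which has no such scaling, the means were 16.9 at day 14 and 13.8 at day 0 in knockout lines, and 12.0 at day 14 and 9.91 at day 0 in control lines. HMGA2-AS1 rose in control lines by 3.47 (SE 0.93, adjusted p = 0.00332), with 17.1 ± 5.31 CPM at day 14 and 0.999 ± 1.20 CPM at day 0 (SD, n = 6 each). In knockout lines it had 12.4 ± 3.95 CPM at day 14 and 6.15 ± 7.13 CPM at day 0, a log2 change of 0.45 (SE 0.81, adjusted p = 0.673).

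Whether the change with differentiation differed between genotypes was tested as an interaction. Of the 8 members with an estimate 0 passed, where 1.47% of 10971 features did, and HES5 had none because its day 0 counts are 0. ZBTB16 was among the 8, but with 0 counts in the day 0 knockout libraries its estimate has no fixed size and is not given. NES came nearest, with a difference of 2.02 on the log2 scale (SE 0.56, edgeR adjusted p = 0.0630). Over all features 62 had a positive and 99 a negative interaction, or 76 and 70 with RLE scaling. NES passed with RLE scaling (adjusted p = 0.0437), with DESeq2 (0.0127) and with no filter on low counts (0.0130). HMGA2-AS1 had -3.02 (SE 1.21, adjusted p = 0.218), MSI1 2.41 (SE 1.25, adjusted p = 0.362) and DACH1 1.01 (SE 0.47, adjusted p = 0.297).

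The features whose day 14 pattern was most like that of a member were ranked by the root mean square difference of centred log2(CPM + 1) values over the 12 libraries, among 4853 features. The nearest to NES were EXOC5 (0.25), AMOT (0.26) and ZNF532 (0.28), where NES itself varied by 0.78 on that measure. DPYSL5 (0.36), FOXB1 (0.36) and RANBP3-DT (0.39) were nearest to HES5, which varied by 1.08. For ENSG00000227279, which varied by 0.47, they were YRDC (0.20), NOL4L (0.21) and MXRA7 (0.21). HMGA2-AS1 varied by 0.46, and SNX10-AS1 (0.24), NCK1-DT (0.28) and MITD1 (0.28) were nearest. The libraries of one genotype share any general shift, which enters these distances, and they are a description only.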

How the data were processed

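RNA was measured in 24 H7 libraries made from Trizol RNA by poly(A) selection and Click-Seq, per the labels' protocols. Per the submitters' processing notes, reads were handled with bcl2fastq 2.20.0, STAR 2.7.9a and Subread 2.0.1 (featureCounts), with the GRCh38 build, and DESeq2 1.34.0 and R 3.5.1 are also named. For the strand setting and the annotation release, the entry is not given in the sources used here. Deposited by the authors were raw counts per gene, whole numbers with no scaling, and totals ran from 1407832 to 3726227.

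Features were placed by name in GENCODE 29 (57015 placed, with 90.11% of counts). Groups were compared with edgeR 4.0.16 quasi-likelihood tests under R 4.3.3 (TMM, filterByExpr, robust), with Benjamini-Hochberg adjusted p under 0.05 over all tested features; an SE is the log2 fold change over the root of F. Genotype was compared within a day. Day and interaction came from a joint fit of both days. No line term was used. Each library counts as independent, also the 3 from a line, and p-values measure the spread between libraries. Members under the count filter, and ratios, were tested by exact permutation of 6 against 6 libraries, where the smallest p is 0.00216. The scripts were tested on simulated data. Intervals cover counting error only, since no molecular identifiers are used here. Pairs for the minority-strand percent share at least 100 exonic bases, with at least 1000 counts under the feature opposite and under 10% of that under the coding gene; the wider set drops the last limit. Other genes are named by a rule: up to 4 called genes of a list by adjusted p, up to 2 not called by level, and the features opposite them.

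The members, lists, rules and tests were chosen with earlier results of these data known, and the SOX motif after reading the HES5 stretch. Alternatives were RLE scaling, TMM without features above 1% of counts, DESeq2 1.42.0, no filter, a replicate block, line sums, a line term, all 24 libraries in 1 fit, the percent as a covariate, thinning to 1407832 counts, and leaving out each library or line. Alternatives added after seeing the data were the wider percent, a second thinning draw, and leaving out the 4 knockout libraries high in the percent or both knockout replicates C.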

Additional observations from a re-analysis of the deposited data

Results flagged for a closer look

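Single libraries stood apart in 5 of the 37 groups of 6 libraries checked, where chance marks about 1 group in 20, and all 5 were at day 0 with 2 to 10 counts. That rate is for normally distributed values, and in a group otherwise at 0 any single library with counts is marked. CDH2 had 3.32 CPM (7 counts) in knockout line 2 replicate A, while the other knockout libraries had at most 1.15 CPM. It had 7.10 CPM (10 counts) in control line 1 replicate B, against at most 0.691 CPM in the other control libraries. ZBTB16 had 1.24 CPM (2 counts) in control line 2 replicate B and 0 in the other 5. FABP7 had 2.53 CPM (4 counts) in knockout line 2 replicate C and 0 in the other 5. In control line 1 replicate B it had 4.26 CPM (6 counts), against at most 1.38 CPM in the other control libraries.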

How the results depend on the processing

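Over 30 alternatives at day 14, NES kept its call in 29 (log2 fold change 0.95 to 1.49), HES5 in 28 (0.73 to 1.90), DACH1 in 26 (0.58 to 1.10), ENSG00000227279 in 26 (0.40 to 0.95) and CDH2 in 18 (0.72 to 1.47). With all 24 libraries in 1 fit, 241 features were called in place of 2474, and of the 9 members 0 passed, with log2 fold changes of 1.30 for NES (adjusted p = 0.0751), 1.79 for HES5 (0.0838), 0.89 for DACH1 (0.180), 1.26 for CDH2 (0.739) and 0.73 for ENSG00000227279 (0.807). The count was 1432 with the minority-strand percent as a covariate, 1129 with the wider percent, 1552 without control line 1 and 1266 without control line 2. MSI1 reversed with the percent as a covariate (-0.42), with the wider percent (-0.95) and without the 4 knockout libraries high in the percent (-0.24). HMGA2 reversed without knockout line 1 (-0.13), and its change with day in knockout lines became 0.16 with RLE scaling and 0.16 with DESeq2. No filter on low counts gave 13 calls at day 0, 8739 for day 14 against day 0 in knockouts (main 5077), 792 for the interaction (main 161), 129 between knockout lines (main 50) and 86 between control lines (main 28). DESeq2 gave 502 calls for the interaction and 136 between knockout lines. The causes were not tested.

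Leaving out 1 library each gave 2113 to 2551 calls at day 14, 0 at day 0, 4874 to 5680 for differentiation in knockouts, 4558 to 5240 in controls, 91 to 259 for the interaction, 22 to 140 between knockout lines and 21 to 57 between control lines. The HMGA2 ratio difference ran from 54.1 to 92.4 percentage points and that of CDH2 from 3.04 to 5.97. HMGA2 ran from -0.47 to 0.14 for differentiation in knockouts, DACH1 from -0.39 to 0.00173 at day 0, and the FABP7 difference at day 14 from -0.287 to 0.828 CPM. ZBTB16 passed at day 14 without control line 1 replicate A (adjusted p = 0.0479).

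Replicate letters are shared between groups without a stated meaning. At day 0 all 12 libraries correlated best with their own letter and 14 of 18 same-letter pairs exceeded 0.1, and at day 14 1 of 12 and 1 of 18 did. As a block, the letter gave 2256 calls at day 14, 184 between knockout lines, and for NES in controls an adjusted p of 0.0538. FABP7 at both days and 6 other members at day 0 were under the count filter.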
